A study of Arabidopsis thaliana with 8 samples.

Results

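Autophagy genes were described here in whole Arabidopsis plants of the accessions Cal-0 and Col-4. They were the genes whose symbol in the platform annotation begins with ATG and a digit, with a probe set of a single gene whose signal averaged 25 or more across the 8 arrays. The rule found 8 genes, each with 1 probe set, among 8226 genes with such probe sets and 15165 probe sets tested in all. They were ATG3 (AT5G61500), ATG8B (AT4G04620), ATG8C (AT1G62040), ATG8D (AT2G05630), ATG8E (AT2G45170), ATG8F (AT4G16520), ATG8G (AT3G60640) and ATG8H (AT3G06420). All 8 genes with such a symbol were above the signal limit, the nearest to it being ATG8H at 51.5, so none was lost to it. None of the 8 probe sets carried a suffix that marks probes shared with other genes. The ATG8 genes are a family of like sequence all the same, and binding of a transcript to a paralogue's probes was not tested.

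Cal-0 (stock N1063) is labelled a calcicole, the term for plants that thrive on calcareous ground, and Col-4 (stock N933) a non-calcicole; the labels name no transgene or mutation in either. Each was hybridised to 4 one-colour ATH1 arrays, at developmental stage 3.90. All plants stood in sand with 1 mM CaCl2 and 0.5 times Long Ashton nutrients at 23 degrees Celsius, so no group received a different calcium dose. Stratification was for 48 h at 4 degrees Celsius, with humidity given as 34 and light as 160, alike for every array. The labels state neither the age in days nor whether plants were pooled for an array. The probes of this array follow Columbia sequence, so a Cal-0 sequence that differs from them can lower the Cal-0 signal without less transcript. The Cal-0 sequence of these genes was not used here, and this was not tested.

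Autophagy carries parts of the cytoplasm into the vacuole inside double-membraned vesicles, the autophagosomes, and plants use it to recycle proteins and organelles in starvation and senescence. ATG8 proteins resemble ubiquitin. The protease ATG4 trims them, the activating enzyme ATG7 and the conjugating enzyme ATG3 pass them on, and an ATG12, ATG5 and ATG16 complex helps to join them to phosphatidylethanolamine in the growing membrane, where they also bind cargo receptors. Arabidopsis ATG8 genes fall into the groups ATG8A to ATG8D, ATG8E to ATG8G, and ATG8H with ATG8I, whose products end in an exposed glycine and need no trimming.

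The 8 arrays had medians between 44.0 and 50.1 signal units over all probe sets that are not controls. The titles number the arrays 1 to 8, and arrays 1 to 4 and 5 to 8 each hold 2 arrays of each accession. The actin and GAPDH controls, whose 3′ over 5′ signal on the log2 scale is a sign of RNA quality, lay between 1.52 and 1.97 in Cal-0 and between 0.927 and 2.39 in Col-4. Of the photosynthetic shoot markers 2 of 24 were tested, and their summed signal was 9694 to 13180 in Cal-0 and 10070 to 16160 in Col-4. Of the root markers 4 of 25 were tested, with sums of 514.8 to 1268 in Cal-0 and 426.8 to 1098 in Col-4. None of these 6 markers passed the test between accessions, and RCA and PYK10, defining genes of leaf and root, had Cal-0 signals of 5130 ± 683 and 788 ± 330 (SD, n = 4). No marker of flowers, pollen or seeds was tested. In whole plants, fewer cells that express a gene and less transcript per cell cannot be told apart.

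ATG8F and ATG8C, which encode ATG8 proteins of different groups, had lower signals in Cal-0, at roughly 63.2% and 69.5% of the Col-4 level. None of the 8 genes was called higher, and autophagy genes without such a symbol are not part of this count. ATG8B was also below its Col-4 values on every Cal-0 array and ATG8D above them, without passing the test. ATG8E, ATG8G, ATG8H and the conjugating enzyme gene ATG3 overlapped between the accessions. Of the 8 genes 2 were called at a limma adjusted p under 0.05, both lower in Cal-0. Over all tested probe sets 4.29% were called, 2.75% as lower and 1.54% as higher in Cal-0. The median log2 difference of the 8 genes was -0.14 on the scale of log2(signal + 16), against 0.028 over all tested probe sets, with 4 genes above 0 and 4 below.

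**Figure D1:**
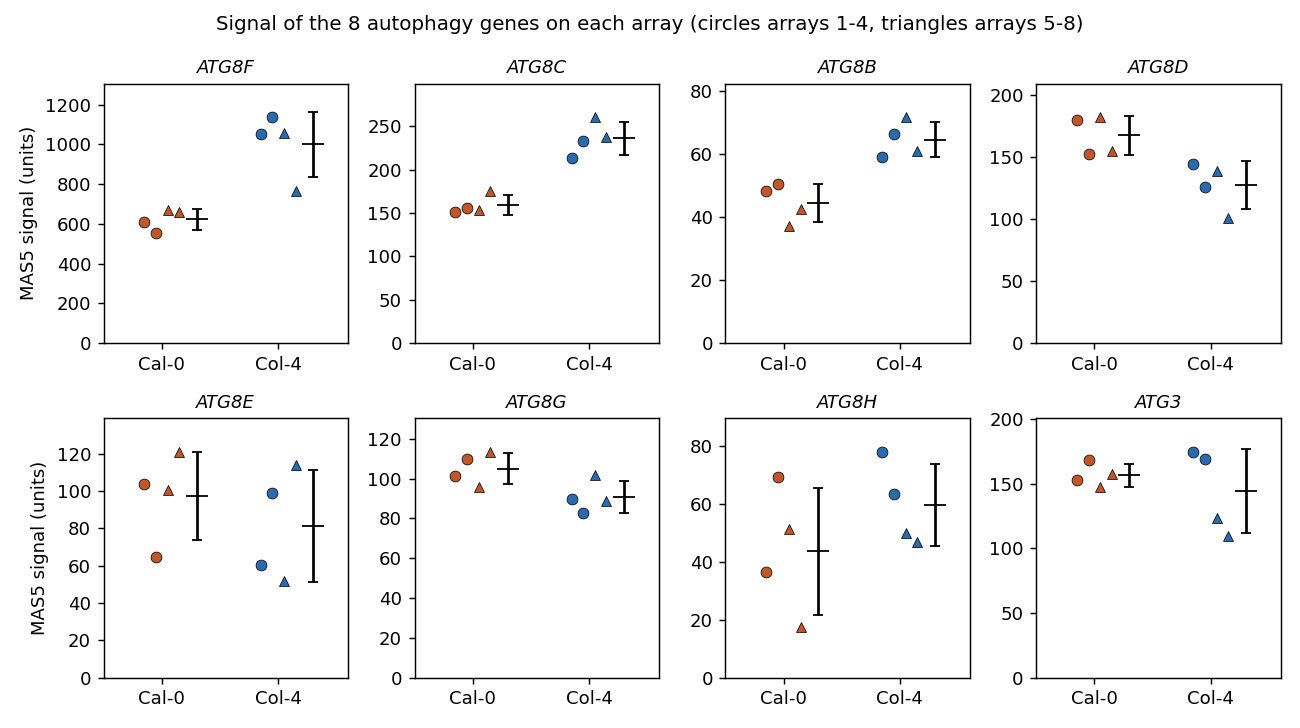
MAS5 signal (y axis, signal units from 0, with a scale for each gene) of the 8 autophagy genes on every array, for Cal-0 and Col-4 (x axis). Circles are arrays 1 to 4, triangles arrays 5 to 8, and bars give the mean and SD of 4 arrays; the accessions are apart for ATG8F, ATG8C, ATG8B and ATG8D, and overlap for the other 4 genes.

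ATG8F, of the ATG8E to ATG8G group, had signals of 607.9, 552.4, 671.3 and 657.5 in Cal-0 replicates 1 to 4. In Col-4 replicates 1 to 4 it was at 1050.9, 1135.8, 1055.1 and 763.7. The highest Cal-0 array thus lay below the lowest Col-4 array, and Col-4 replicate 4 stood nearest to Cal-0. The means were 622 ± 53.95 and 1001 ± 163 (SD, n = 4), which differed by -0.66 on the log2 scale, with a standard error of 0.15 and a 95% interval of -1.0 to -0.33 (limma adjusted p = 0.0315). On a linear scale the interval runs from 50.2% to 79.7% of the Col-4 level, with 16 added to each signal. Of all tested probe sets 3.38% had a lower difference. The call was lost on leaving out any one array except Col-4 replicate 4, with limma adjusted p of 0.0537 to 0.106 over those 7 fits, and it held without that replicate at 0.00836. The log2 difference itself stayed between -0.78 and -0.60 in the 8 fits.

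ATG8C, of the ATG8A to ATG8D group, had signals of 151.5, 155.9, 153.5 and 175.6 in Cal-0 replicates 1 to 4, and 213.7, 232.6, 260.1 and 237.6 in Col-4. The accessions were again apart, and the replicates were closer together than for ATG8F. The means were 159 ± 11.1 and 236 ± 19.1 (SD, n = 4), a log2 difference of -0.52 with a standard error of 0.13 and a 95% interval of -0.80 to -0.25 (limma adjusted p = 0.0371). Of all tested probe sets 5.22% had a lower difference. Leaving out an array ended the call in 7 of 8 fits, at limma adjusted p of 0.0517 to 0.117. It held without Cal-0 replicate 4, at 0.0495. The log2 difference stayed between -0.57 and -0.48.

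ATG8B and ATG8D share the group of ATG8C. ATG8B was at 48.2, 50.4, 37.0 and 42.4 in Cal-0 and at 59.1, 66.3, 71.5 and 61.0 in Col-4, near the median signal of the arrays. Its Cal-0 arrays all lay lower, but the log2 difference of -0.41 (95% interval -0.70 to -0.13) did not pass the test (limma adjusted p = 0.117). ATG8D pointed the other way, with 180.2, 152.4, 182.1 and 155.4 in Cal-0 and 144.3, 125.9, 138.6 and 101.0 in Col-4. All 4 Cal-0 arrays lay above the Col-4 arrays, and the log2 difference of 0.36 (95% interval 0.05 to 0.68) did not pass either (limma adjusted p = 0.234). With ATG8F and ATG8C, 4 of the 8 genes had accessions that did not overlap, 3 lower and 1 higher in Cal-0. Over all tested probe sets 10.3% had accessions without overlap, 5.43% lower and 4.89% higher.

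ATG8E and ATG8G share the group of ATG8F and overlapped between accessions. ATG8E spread widely, at 64.9 to 120.8 in Cal-0 and 51.9 to 113.8 in Col-4, with a log2 difference of 0.25 (95% interval -0.26 to 0.76, limma adjusted p = 0.705). ATG8G was among the least variable of the 8 genes, at 96.0 to 113.3 in Cal-0 and 82.6 to 102.0 in Col-4. Its log2 difference was 0.18 (95% interval -0.09 to 0.46, limma adjusted p = 0.578). The interval of ATG8G leaves no room for a fall of the size measured in ATG8C or ATG8F, while that of ATG8E also ends above both values.

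ATG8H, whose product needs no trimming, had the widest spread of the 8 genes, with a replicate SD of 0.45 on the log2 scale. It was at 36.4, 69.1, 51.2 and 17.5 in Cal-0 and at 77.8, 63.4, 50 and 46.8 in Col-4. Its low signals overlapped, and the log2 difference of -0.41 had a 95% interval of -0.97 to 0.15 (limma adjusted p = 0.529). A fall as large as that of ATG8F lies inside this interval, so such a difference is not excluded. Without Cal-0 replicate 4, the lowest array, the log2 difference was -0.16.

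ATG3, the enzyme that attaches ATG8 to the lipid, was at 153.2, 168.1, 147.4 and 157.9 in Cal-0 and at 174.5, 169.3, 123.6 and 110.0 in Col-4. The Cal-0 arrays lay close together within the Col-4 range, and the log2 difference was 0.13 (95% interval -0.22 to 0.48, limma adjusted p = 0.797). Its sign was not settled, being -0.09 within arrays 1 to 4 and 0.35 within arrays 5 to 8.

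**Figure D2:**
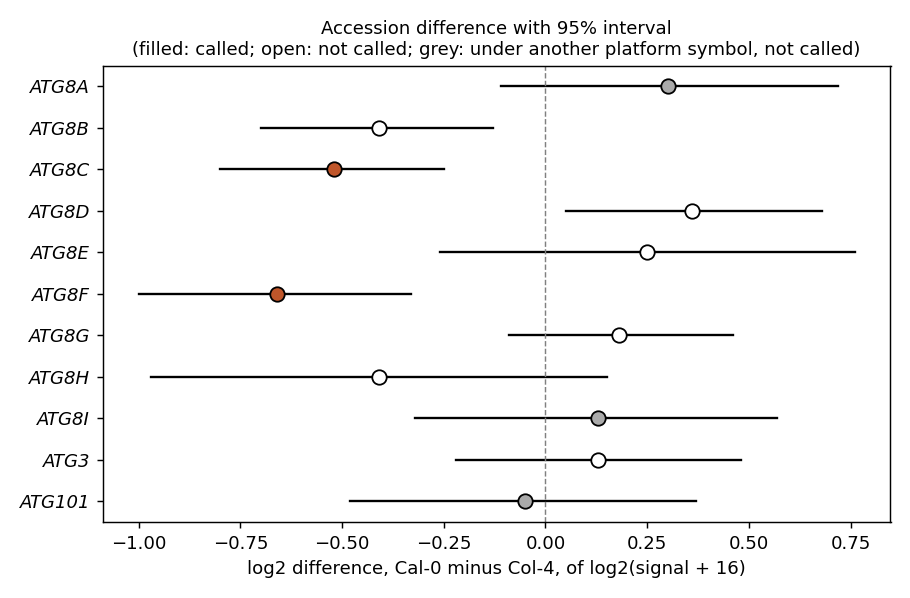
Log2 difference of Cal-0 minus Col-4 (x axis, log2 of signal plus 16) for 11 autophagy genes (y axis), with 95% intervals from limma. ATG8C and ATG8F, filled, were called; open points are the other 6 genes of the rule and grey points are 3 genes listed under another platform symbol, all 9 not called.

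The platform lists 3 more autophagy genes under other symbols, and they were looked up after the gene table had been read. They are APG8A (ATG8A, AT4G21980), APG8H (ATG8I, AT3G15580) and AT5G66930 (ATG101), a subunit of the ATG1 kinase complex that starts autophagosome formation. With them all 9 ATG8 genes from A to I were measured. For ATG8A the Cal-0 arrays ranged from 147.9 to 267.8 and the Col-4 arrays from 116.2 to 178.7, with a log2 difference of 0.30 (limma adjusted p = 0.524). For ATG8I the ranges were 370.0 to 625.7 and 333.1 to 516.5, with a difference of 0.13 (limma adjusted p = 0.853). For ATG101 they were 105.7 to 127.6 and 77.8 to 169.2, with a difference of -0.05 (limma adjusted p = 0.951). None of these 3 passed, and the accessions overlapped in each.

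By group, ATG8A to ATG8D held 2 positive and 2 negative differences, from -0.52 to 0.36, with 1 gene called lower. ATG8E to ATG8G held 2 positive and 1 negative, from -0.66 to 0.25, with 1 gene called lower. ATG8H and ATG8I stood at -0.41 and 0.13, neither called. Each group thus had differences of both signs, and the called genes belong to different groups. Over the 9 ATG8 genes the median difference was 0.13, with 5 above 0 and 4 below.

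**Figure D3:**
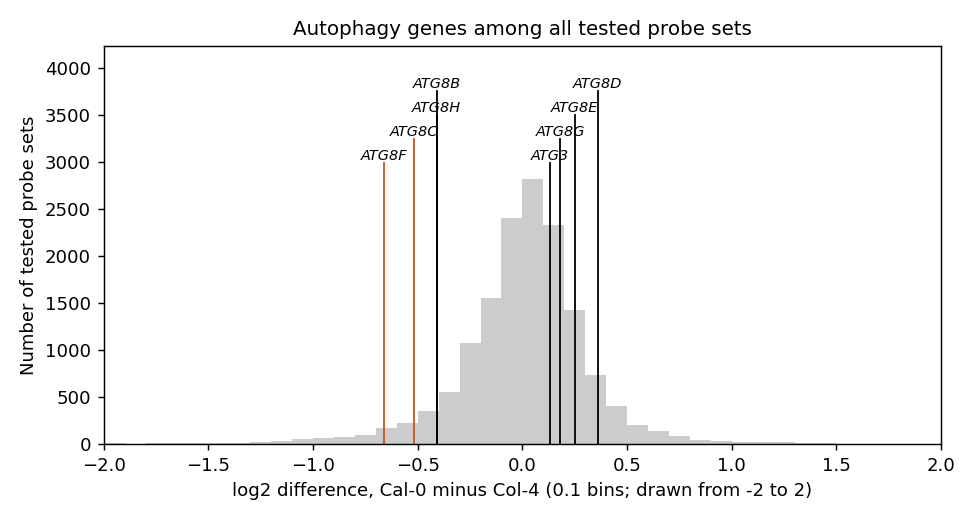
Number of tested probe sets (y axis) by log2 difference of Cal-0 minus Col-4 (x axis, bins of 0.1, drawn from -2 to 2, which leaves out 53 probe sets). Lines mark the 8 autophagy genes, with ATG8F at -0.66 and ATG8C at -0.52 in colour and the other 6 between -0.41 and 0.36.

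The ratios of ATG8F and ATG8C to the other genes within each array are given as a description only. The 13 pairs were chosen after the results were seen. A level of 1 probe set cannot be set against that of another, so only the change of a ratio between accessions is read. The log2 ratio of ATG8F to ATG8D was 1.67 to 1.97 in Cal-0 and 2.73 to 3.02 in Col-4, a difference of -1.02 with no overlap. That of ATG8C to ATG8G was 0.45 to 0.60 in Cal-0 and 1.12 to 1.33 in Col-4, a difference of -0.70. In all, 6 of the 13 pairs did not overlap, namely ATG8F and ATG8C each against ATG8D, ATG8G and ATG3. ATG8F and ATG8C were lower and ATG8D higher on every Cal-0 array, so their separation from ATG8D was fixed by that. The share over pairs of other genes was not computed. In an exact permutation test over arrays 0 of the 13 pairs passed (lowest Benjamini-Hochberg adjusted p 0.0619). With 70 splits no unadjusted p could be under 0.0286, and the 6 pairs without overlap were at that limit. An adjusted p under 0.05 needed most of the 13 pairs there, so the lack of a pass says nothing about the ratios. ATG8F and ATG8C head the pairs because these same data called them, so the ratios are no further support. The log2 ratio of ATG8C to ATG8F was -2.02 to -1.73 in Cal-0 and -2.22 to -1.62 in Col-4, a difference of 0.14 with overlapping arrays. Against ATG8B their ratios changed by -0.11 and -0.25, and the accessions overlapped.

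**Figure D4:**
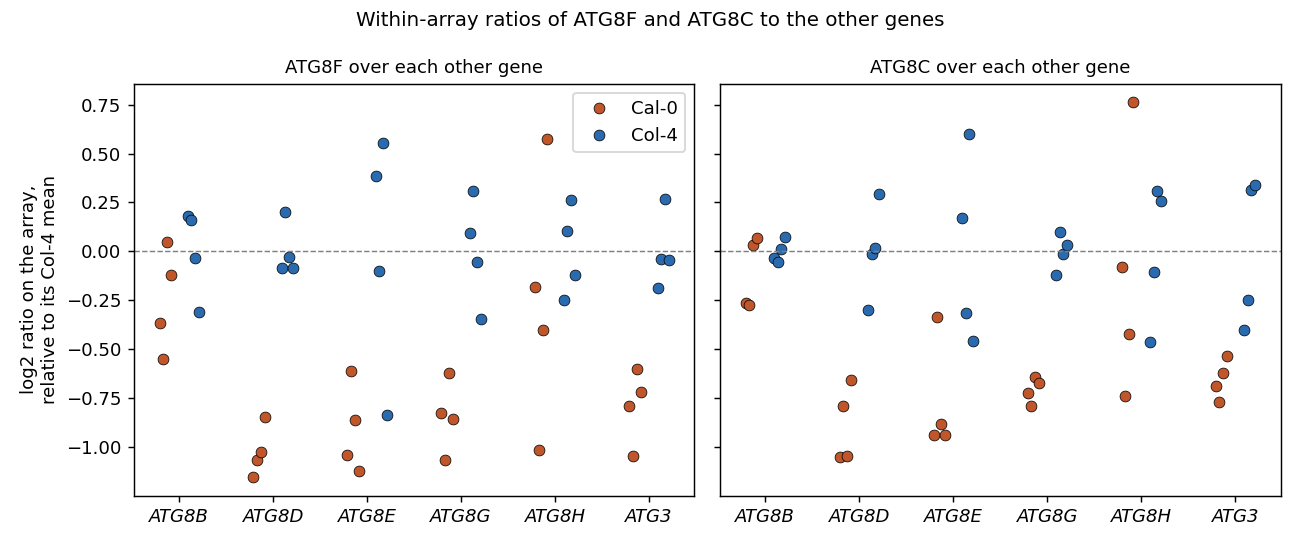
Log2 ratio of ATG8F (left) and ATG8C (right) to each of the other 6 genes on every array, relative to the Col-4 mean of that ratio (y axis). The Cal-0 points lie below all Col-4 points against ATG8D, ATG8G and ATG3, and overlap them against ATG8B, ATG8E and ATG8H.

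Each set of arrays also gave its own accession difference, from 1 fit whose spread was estimated over all 8 arrays. ATG8C was nearly the same in both, at -0.49 and -0.55, without passing in either (limma adjusted p = 0.178 and 0.159). ATG8F was at -0.90 in arrays 1 to 4, where it passed (limma adjusted p = 0.0407, with 2.5% of all probe sets called), and at -0.43 in arrays 5 to 8, where it did not (limma adjusted p = 0.396, with 2.1% called). The difference between these was 0.47, with an unadjusted interaction p of 0.109 in limma and an adjusted p of 0.999. No probe set of the 15165 passed the limma interaction test (0%), while 4% had an unadjusted p under 0.05, among them none of the 8 autophagy genes. Apart from ATG3, the 8 genes had the same sign in both sets of arrays. Between the sets, arrays 5 to 8 differed from arrays 1 to 4 at 6.81% of all probe sets, and none of the 8 genes passed that comparison. In arrays 1 to 4, where ATG8F differed most, the 3′ to 5′ ratio was 1.701 and 1.522 in Cal-0 and 0.955 and 0.927 in Col-4. RNA quality and accession cannot be told apart within those arrays. Col-4 replicate 4 had the highest ratio, 2.39, and the lowest Col-4 signal of ATG8F. With the ratio as a covariate the log2 differences of ATG8F and ATG8C were -0.59 and -0.55, both called (limma adjusted p = 0.0337 and 0.0251). That fit called 5.72% of all probe sets. Whether RNA quality bears on either difference was not tested.

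**Figure D5:**
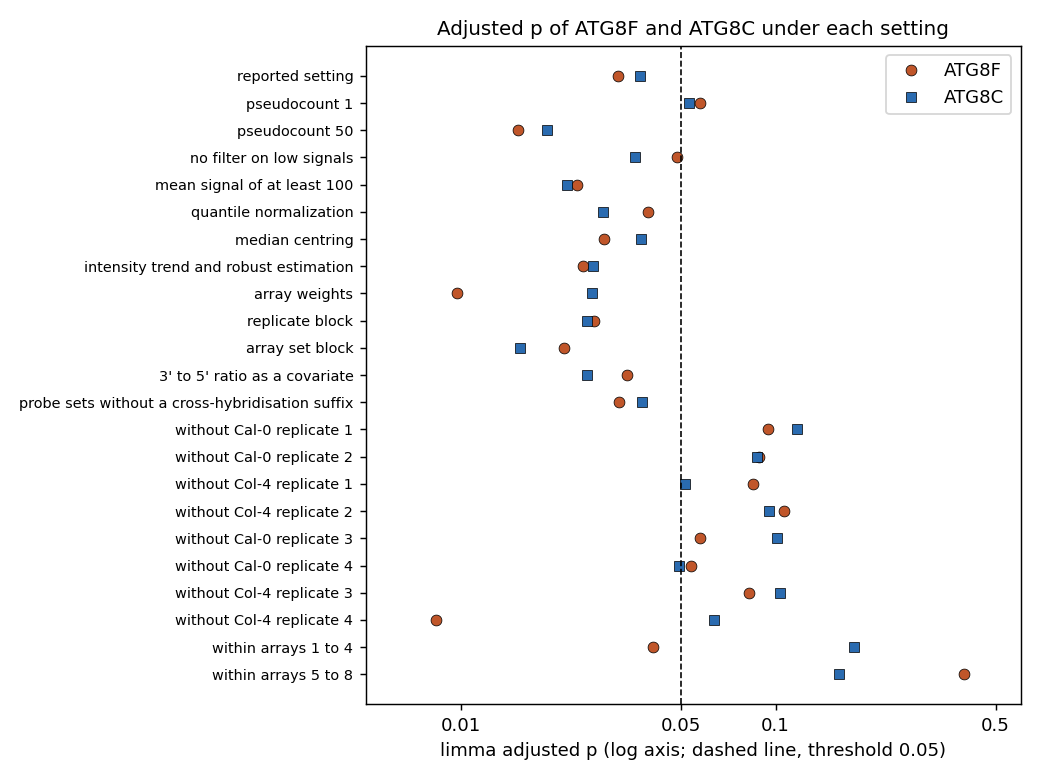
Adjusted p from limma (x axis, log scale) of ATG8F and ATG8C under the reported setting and 22 alternatives (y axis), with the threshold of 0.05 as a dashed line. Both genes were called under 11 of 12 changes of scale, filter or model, the exception being a pseudocount of 1, and each in 1 of 8 fits that leave out an array.

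Within an accession the 8 genes did not vary together in a way that passed a test. Deviations from the accession mean were correlated over the 8 arrays for the 28 pairs, of which 12 were positive and 16 negative. The highest was that of ATG8D with ATG8F (Pearson r = 0.75, Spearman rho = 0.62, permutation p within accessions 0.101 and 0.156, Benjamini-Hochberg adjusted 0.681 and 0.958), and r was -0.28 without the 2 arrays farthest from the median of ATG8D. The lowest was that of ATG8C with ATG8H (r = -0.71, rho = -0.69, permutation p = 0.0503 and 0.0712, adjusted 0.681 and 0.958), and r was -0.35 without the 2 farthest arrays. ATG8C and ATG8F, though both lower in Cal-0, had r = 0.04 and rho = 0 (permutation p = 0.929 and 1, adjusted 0.976 and 1), and r = -0.50 without the 2 farthest arrays. No pair had an unadjusted p under 0.05.

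The genes whose deviations were most like those of ATG8C and ATG8F were taken from 3266 probe sets with a single gene and a mean signal of at least 100. Chosen as the highest of so many over 8 arrays of common origin, their correlations are a description only. For ATG8F they were AT3G51730 (r = 0.98), AT3G58730, a gene of the vacuolar proton pump (VHA-D, r = 0.94), GSTL3, a lambda-class glutathione transferase gene (r = 0.933), AT2G04570 (r = 0.931) and AT5G01010 (r = 0.924). None of these 5 was called between accessions, with log2 differences from -0.20 to 0.11. For ATG8C they were AT1G44920 (r = 0.961), AT1G19110 (r = 0.958), AT1G28150 (r = 0.952), AT3G61080 (r = 0.947) and AT2G44760 (r = 0.931). Of these AT1G28150 fell in Cal-0, where it averaged 155 against 298, a log2 difference of -0.89 (limma adjusted p = 0.0287), and the other 4 were not called.

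The pathway around autophagy was followed through 8 lists, of whose 308 entries the gene table named few, so that 25 probe sets were tested. None was called in the limma fit, against 4.29% of all probe sets, while 7 had an unadjusted p under 0.05, which 15.5% of all probe sets had. Of the 25 differences 13 were positive and 12 negative, with a median of 0.04. Among autophagy partners, 2 were tested and VPS46.2, related to the membrane-sorting ESCRT complexes, averaged 371 ± 20.2 on the Cal-0 arrays and 355 ± 68.9 on those of Col-4 (SD, n = 4). In TOR and SnRK1 signalling, the kinases that repress and promote autophagy, 5 were tested and AT4G16360, a beta subunit gene of SnRK1, had a Cal-0 mean of 165 ± 22.7 and a Col-4 mean of 118 ± 4.67, which differed by 0.43 (limma adjusted p = 0.109). Of the genes for the TOR partner protein, RAPTOR1 had a difference of 0.24 and RAPTOR2 one of -0.56 (limma adjusted p = 0.457 and 0.464). The beta subunit genes AKINBETA1 and AT2G28060 stood at 0.07 and -0.18, so the 5 differences had both signs.

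Among vacuolar proteases, which break down what autophagy delivers, 3 were tested and GAMMA-VPE averaged 1211 ± 215 on the Cal-0 arrays and 988 ± 134 on those of Col-4, a difference of 0.28 (limma adjusted p = 0.475). The other two had the opposite sign, BETA-VPE at -0.24 and APA1 at -0.10 (limma adjusted p = 0.744 and 0.902), and the median of the list was -0.10. The proteasome list had RPN12a alone, with a log2 difference of 0.14 (limma adjusted p = 0.77). Of other ubiquitin-like systems 3 probe sets were tested, and the SUMO ligase gene SIZ1 was at 226 ± 44.9 against 146 ± 6.64 in the brighter of its 2 probe sets (log2 difference 0.56, limma adjusted p = 0.0568). Its other probe set had a log2 difference of 0.73 (limma adjusted p = 0.22). Vacuolar trafficking had 3 tested, SNF7.2 standing at -0.40 (limma adjusted p = 0.361), VPS2.1 at -0.05 and SNF7.1 at 0.20. Nitrogen remobilisation had the nitrate transporter gene NRT2.5 alone, with 19.3 ± 4.83 in Cal-0, 33.2 ± 5.94 in Col-4 and a difference of -0.48 (limma adjusted p = 0.108).

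Of the senescence and carbon starvation genes 7 were tested, a list of interest because autophagy genes are induced in ageing leaves. WRKY6 had the smallest p, with a mean of 38.9 ± 6.20 on the Cal-0 arrays, 20.1 ± 6.23 on the Col-4 arrays and a difference of 0.61 (limma adjusted p = 0.0522). SAG29 differed more and with the opposite sign, at 15.8 ± 10.4 and 52.5 ± 32.6 and a difference of -1.04 (limma adjusted p = 0.146). SAG101 stood at 0.33 (limma adjusted p = 0.283), EIN3 at 0.04, and NOL, IVD and WRKY53 between -0.20 and -0.11. The median of the list was -0.11, with 3 genes above 0 and 4 below. Some of these low probe sets averaged below the signal limit in the lower accession. They were NRT2.5, SAG29 and WRKY53 in Cal-0, and WRKY6 and the dimmer SIZ1 probe set in Col-4. Each was tested only because its signals in the other accession were higher, so its difference rests on low signals. With the replicate number as a block WRKY6, NRT2.5 and the brighter probe set of SIZ1 passed (limma adjusted p = 0.0406, 0.0288 and 0.025). The other SIZ1 probe set did not (limma adjusted p = 0.0919), and 8.57% of all probe sets were called. In that fit ATG8F and ATG8C remained the 2 autophagy genes called, at limma adjusted p of 0.0264 and 0.0251.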

How the data were processed

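Biotin-labelled RNA of whole plants was hybridised to ATH1 arrays. The authors deposited an intensity for each probe set on a linear scale, produced by MAS5 according to the submitters' processing notes (version and settings not given in the sources used here). Each array's mean without its top and bottom 2% was 100.01, so signals had been set to a common level. Symbols were matched through gene identifiers to RefSeq, TAIR10.1 (8 of 8 members). No coordinates or sequences are printed, as no genome or sequence table was used. Of the probe sets other than controls, 8730 lacked a gene name here.

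The test used log2(signal + 16), which understates differences of low genes, on the 15165 probe sets averaging 25 or more, with limma 3.58.1 (R 4.3.3, two-sided moderated test of accession, 6 residual degrees of freedom). Benjamini-Hochberg adjustment ran over all of them, with a threshold of 0.05. Detection calls were not used, and the number of arrays limits the precision. Since no label ties replicates to separate plants, p-values reflect the spread among these samples alone, which may be technical. Same-numbered arrays deviated together (r of 0.278, 0.376, 0.478 and 0.403 across probe sets), which meets the rule used for pairing on evidence of the data and not the labels, but the reported fit has no block, and the fit with the replicate block is an alternative; within arrays 1 to 4 unlike numbers correlated as well (0.273 and 0.382).

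The members and lists were chosen with earlier results of these data known. Named were all members, up to 4 called genes of each list or else the one with the smallest p, and the 5 genes most like ATG8C and ATG8F. Other members of the lists, and the 3 genes under other symbols, were added after their values were seen. Alternatives changed the pseudocount, filter, normalization, variance model, block, RNA quality covariate and arrays included.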

Additional observations from a re-analysis of the deposited data

How the results depend on the processing

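The count of called autophagy genes, 2 in the reported fit, was 0 with a pseudocount of 1, 0 to 1 with 1 array left out, 1 within arrays 1 to 4 and 0 within arrays 5 to 8. With a pseudocount of 1 ATG8F and ATG8C missed the threshold narrowly (limma adjusted p = 0.0577 and 0.0532), at log2 differences of -0.67 and -0.56. In the other 11 changes of scale, filter or model both stayed called. Of 172 results of the 8 genes under alternatives, 152 kept their sign and their side of the threshold, 19 lost a call and 1, ATG3 within arrays 1 to 4 at -0.09, changed sign. Most of the 152 belong to genes that had no call to lose. All 19 losses fell on the called genes. Of 22 alternatives, ATG8C kept its call in 12 and lost it in 10, and ATG8F kept its call in 13 and lost it in 9. No value was had for ATG8B, ATG8E, ATG8G and ATG8H with a mean signal of at least 100, which they do not reach.

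Over all probe sets 651 were called, 406 with a mean signal of at least 100, 1299 with the replicate block, 1095 with the array set block, 379 and 319 within arrays 1 to 4 and 5 to 8, and 412 to 672 with 1 array left out. The replicate block changed no call of the 8 genes. Of the 25 probe sets of the pathway lists, 0 were called, 1 with a pseudocount of 50 and 1 with a mean signal of at least 100. With the replicate block 3 were called, and with the array set block 4, which added AT4G16360 (limma adjusted p = 0.047). Some of these fits hold fewer arrays or probe sets by construction; the cause of the other changes was not tested. Signals near the array median, as in ATG8B and ATG8H, limit what can be seen there. WRKY6 and NRT2.5, called with either block, averaged below the signal limit in the lower accession.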

Other observations

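ATG8I, listed as APG8H, differed more between the sets of arrays than between accessions. Its signals were 370.0, 385.6, 333.1 and 396.4 on arrays 1 to 4 and 554.0, 625.7, 502.9 and 516.5 on arrays 5 to 8, and in limma it was higher in arrays 5 to 8 by 0.54 on the log2 scale (adjusted p = 0.0349, with 6.81% of all probe sets called). None of the 8 genes of the rule passed this comparison. ATG101 stood at -0.40 between accessions in arrays 1 to 4 and at 0.30 in arrays 5 to 8, and the limma interaction did not pass (adjusted p = 0.999). Among 22 groups of 4 arrays for the 11 autophagy genes, no array stood apart from the other 3 past Dixon's 95% critical value.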
